A study of Mus musculus with 4 samples.

Results

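Peaks of accessible chromatin called only in TCKO osteoblasts were described here. They were the distinct peak intervals of the TCKO list on chromosomes 1 to 19 with a −log10 q of at least 3 and no base in common with any interval of the WT list. This gave 12491 intervals among the 143010 autosomal TCKO peaks at that q (8.73%), or among the 255864 regions of the count table of both genotypes. They were chosen on the measured signal, so their higher read density in TCKO is a description and not a finding. The same rule with the genotypes exchanged gave 52453 of 186081 WT peaks (28.2%).

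The assay was ATAC-seq, in which a transposase inserts sequencing adapters into DNA that is not covered by nucleosomes, so that read density reflects accessibility. Primary osteoblasts, the cells that lay down bone matrix, came from C57BL/6 mice aged 3 days. WT samples were labelled wild type with no alleles named, and TCKO samples were labelled a TET1/2/3 triple knockout and came from animals carrying Prx1-Cre with Tet1fl/fl, Tet2fl/fl and Tet3fl/fl alleles. Each genotype had 2 samples (4 in all), although a protocol text spoke of 3 repeats and of an RNA library kit, and each was deposited as 1 merged column, so the spread between replicates is unknown and the genotypes could be compared only as a pair of merged libraries. Prx1-Cre, driven by Prrx1 regulatory sequence, is active in limb and other mesenchyme, so floxed alleles in cells of another origin in the culture would stay intact.

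TET dioxygenases oxidise 5-methylcytosine in CpG dinucleotides and keep many enhancers free of methylation. AP-1 factors, dimers of Fos and Jun family proteins, bind a short palindrome whose commonest forms hold no CpG, and they occupy many distal enhancers in mesenchymal cells. CTCF, which holds chromatin loops in place, and the KLF/SP and ETS factors, which often bind promoters, were included for comparison.

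Total counts over all regions were 56898657 in WT and 34608167 in TCKO. All 9 osteoblast markers examined had a WT peak within 1 kb of a transcript start (8 of 9 in TCKO), and 0 of 4 skeletal muscle markers did. Peaks were also present in WT at the starts of 3 of 4 macrophage or osteoclast markers (all but Ptprc) and 3 of 4 endothelial markers (all but Cdh5). In TCKO these counts were 2 of 4 and 4 of 4. Summed over regions at the start, the macrophage or osteoclast markers held 0 to 708 reads in WT and 0 to 531 in TCKO, and the endothelial markers 57 to 514 and 74 to 416. In a bulk sample, a change in the share of cells of one type and a change in accessibility per cell cannot be told apart, and the part of other cell types in the results below was not tested.

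The sequences at the summits, where most reads piled up, show what these peaks contained. Each line below gives a summit with the 50 bases on either side, read from the plus strand of GRCm38, with every match to the AP-1 consensus TGANTCA in capitals. The first group holds the members with the highest q or the largest ratio that carried the consensus there, as fixed by the naming rule. They lay in an intron of Rasal2 (chr1:157393278-157393378), in an intron of Fut9 (chr4:25690296-25690396), in an intron of Entpd7 (chr19:43695811-43695911) and between genes near Fam114a2 (chr11:57465153-57465253).
Rasal2 intron: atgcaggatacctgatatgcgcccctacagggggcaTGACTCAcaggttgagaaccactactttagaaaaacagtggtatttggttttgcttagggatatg
Fut9 intron: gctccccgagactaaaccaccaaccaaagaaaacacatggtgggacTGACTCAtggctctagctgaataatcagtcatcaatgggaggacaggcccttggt
Entpd7 intron: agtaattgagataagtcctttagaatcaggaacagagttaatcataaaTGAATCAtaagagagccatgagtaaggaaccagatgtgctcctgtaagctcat
Fam114a2 side: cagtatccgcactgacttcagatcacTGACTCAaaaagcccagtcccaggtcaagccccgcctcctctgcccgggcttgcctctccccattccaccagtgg

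The next group shows the following 4 members by q with the consensus and no more than 50% of repeat-masked bases, a set added after the values were seen because the Rasal2 and Fut9 windows are largely repeats. They lay near Cited2 (chr10:17648301-17648401), near Pou3f3 (chr1:41872694-41872794), in an intron of Tgm5 (chr2:121054917-121055017) and near Scn7a (chr2:66794049-66794149).
Cited2 side: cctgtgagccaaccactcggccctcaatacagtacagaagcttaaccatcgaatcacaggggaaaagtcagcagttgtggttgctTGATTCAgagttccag
Pou3f3 side: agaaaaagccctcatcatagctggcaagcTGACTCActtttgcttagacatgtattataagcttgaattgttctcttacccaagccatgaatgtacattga
Tgm5 intron: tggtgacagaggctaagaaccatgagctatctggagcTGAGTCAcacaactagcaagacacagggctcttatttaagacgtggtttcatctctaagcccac
Scn7a side: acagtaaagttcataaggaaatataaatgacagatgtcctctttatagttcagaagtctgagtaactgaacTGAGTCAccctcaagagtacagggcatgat

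The last group shows strong members without the consensus at the summit. It holds the highest-q members, near Fcgr3 (chr1:171081979-171082079) and near Kctd8 (chr5:69386575-69386675), and, added for the results on their loci, 2 members at the start of Prrx1 (chr1:163314041-163314141) and upstream of Fcgr3 (chr1:171066746-171066846).
Fcgr3 far side: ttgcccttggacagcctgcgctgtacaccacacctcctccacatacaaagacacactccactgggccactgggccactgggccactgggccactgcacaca
Kctd8 side: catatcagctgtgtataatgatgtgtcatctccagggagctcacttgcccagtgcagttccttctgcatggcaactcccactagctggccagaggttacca
Prrx1 start: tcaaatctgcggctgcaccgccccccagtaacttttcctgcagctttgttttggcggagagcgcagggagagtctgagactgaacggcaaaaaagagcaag
Fcgr3 near side: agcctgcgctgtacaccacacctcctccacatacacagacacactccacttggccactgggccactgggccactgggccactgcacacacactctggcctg

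The peaks called only in TCKO were small. Their median width was 138 bp (lowest 102, highest 736), against 269 bp for TCKO peaks shared with WT and 170 bp for peaks called only in WT. At the summit a median of 12 reads was piled up (10 to 43) over a local background of 2.07 reads, against 21 reads over 3.03 in shared peaks. The median −log10 q was 4.02 and the highest was 27.8, and 9003 of the 12491 lay between 3 and 5, 3186 between 5 and 10, 295 between 10 and 20, and 7 at 20 or above. Nearly all, 12437, were identical to a region of the count table, and the other 54 lay in a wider region that also held a WT peak. The members covered 1997 kb. Their regions held 1.85% of the TCKO reads and 0.707% of the WT reads that were counted over all regions.

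Reads were also present in WT at these places. The members held a median of 28 WT reads (5th to 95th percentile 11 to 69, lowest 0, highest 650) and a median of 45 TCKO reads (27 to 97, lowest 18, highest 429). Counts are those of the overlapping region of the count table, which for 54 members was wider and also held a WT peak. With 0 WT reads there were 3 members, and 33 had at most 3. In 925 members (7.41%) the raw WT count was at least as high as the raw TCKO count, although no WT peak was called. The weakest peaks called only in WT, with a −log10 q from 3 to 3.5, had a median of 46 WT and 25 TCKO raw reads over 11139 peaks. After the libraries were scaled to equal totals, peaks called only in WT with a −log10 q of 3 to 5 had a median log2 ratio of −0.23, and members in that range 1.35. How far each lies from 0 depends on the scaling. The factor on TCKO was 1.64 here and 1.08 with the peak caller's genome-wide background, which would lower both medians.

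**Figure D1:**
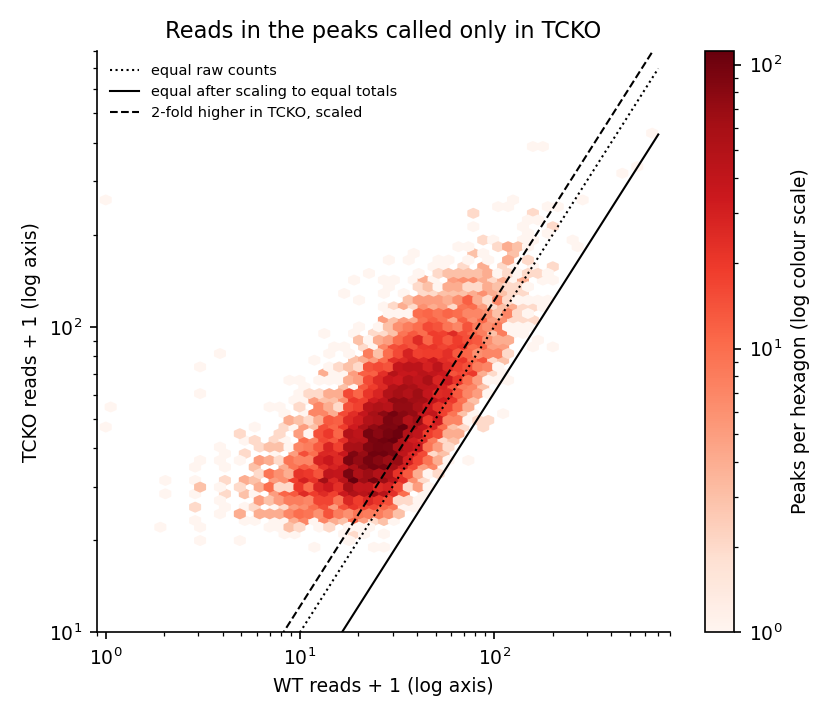
WT reads (x) and TCKO reads (y), each plus 1 and on log axes, in the 12491 peaks called only in TCKO, with darker hexagons holding more peaks. The solid line marks equal reads after scaling to equal totals, the dashed line a 2-fold excess in TCKO and the dotted line equal raw reads; the cloud centres on a median of 28 WT and 45 TCKO reads, and 925 peaks lie on or below the dotted line.

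After TCKO was scaled to the WT total, 10026 members (80.3%) were at least 2-fold higher in TCKO, against 12.3% of all 255864 regions. This contrast is the one that chose them, so nothing is read from the difference. Their log2 ratio, computed with 1 count added to each scaled value, had a median of 1.41 and ran from 1.09 at the 25th to 1.77 at the 75th percentile. At least 4-fold higher were 1799 members (14.4%). Over all autosomal regions the 95th percentile of the log2 ratio was 1.49, short of 4-fold. The value depends on the scaling. With the depth taken from the peak caller's genome-wide background instead, 4483 members (35.9%) passed 2-fold, beside 3.91% of all regions, and the median log2 ratio was 0.81. The median of all regions was 0.06 with total counts and −0.54 with the caller's background, so the members' median stood 1.34 and 1.35 log2 units above that of all regions.

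Values on the 2 sides of the threshold overlapped. The 5 members just inside had −log10 q values of 3.00, WT counts of 37 to 49 and TCKO counts of 63 to 76, and lay in introns of Tyro3, Mcph1 and Tmem182, at the start of C77080 and near Usp24. The 5 TCKO peaks without WT overlap just below it had 29 to 67 WT and 37 to 88 TCKO reads. In all, 13301 autosomal TCKO peaks without WT overlap fell below the threshold, with medians of 22 WT and 34 TCKO reads.

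The members lay far from gene starts. Only 336 (2.69%, 95% Wilson interval 2.42 to 2.99) had the start of a protein-coding transcript within 1 kb, against 13.9% of shared peaks, 4.64% of peaks called only in WT and 8.83% of all autosomal regions. Intergenic positions held 6493 members (52.0%, 51.1 to 52.9), against 43.9% of shared peaks and 46.6% of peaks called only in WT. Introns held 42.2% and exons 3.17%. The median distance to a protein-coding start was 49.2 kb, against 26.3 kb for shared peaks and 34.04 kb for peaks called only in WT, and 35.0% of members lay beyond 100 kb, against 22.0% and 25.4%. These shares follow from position and were not used by the rule. The intervals of shares, here and below, treat peaks as independent, although all come from 1 merged library per genotype. They therefore hold no variation between replicates. Intervals of read ratios cover counting error alone, and PCR copies of a molecule could not be recognised among the counted reads.

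**Figure D2:**
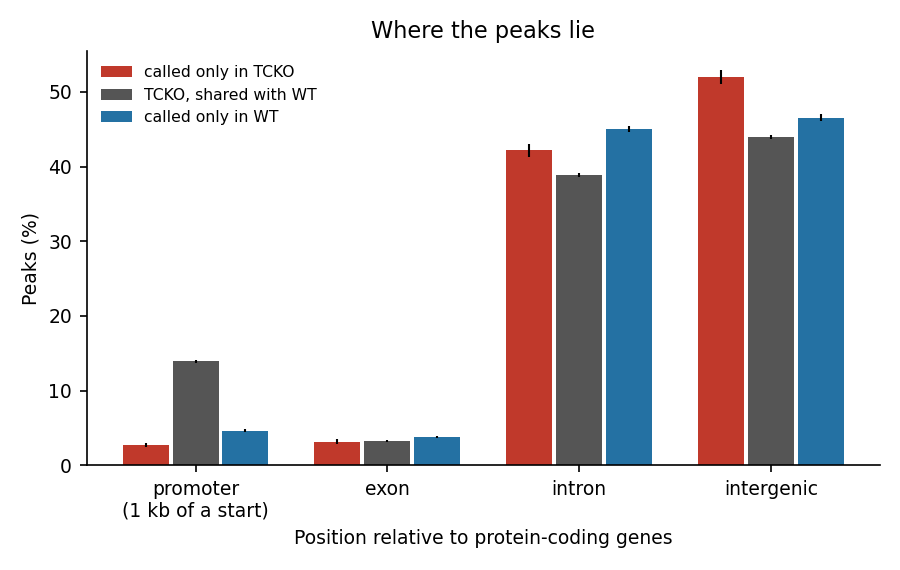
Share of peaks (%) at promoters, in exons, in introns and between genes for peaks called only in TCKO (red), TCKO peaks shared with WT (grey) and peaks called only in WT (blue), with 95% Wilson intervals as lines. Promoters hold 2.69%, 13.9% and 4.64% of the 3 sets, and intergenic positions 52.0%, 43.9% and 46.6%.

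Peak strength differs between the sets, so the promoter share was also read within bins of q. For a −log10 q of 3 to 5 it was 2.91% in members (262 of 9003), 8.70% in shared peaks and 4.74% in peaks called only in WT. For 5 to 10 it was 2.20%, 9.34% and 4.69%. Members thus had the lowest promoter share of the 3 sets in both bins that held most of them.

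Members were poor in CpG. A window of 200 bp at the centre held a mean of 1.81 CpG dinucleotides, against 4.28 in shared peaks and 2.78 in peaks called only in WT, and no CpG at all was found in 25.8% of members, against 14.5% and 14.6%. Median GC content was 46%, 49% and 48%. A mean of 17.5% of the window was repeat-masked, against 11.6% and 15.1%, and 11.1% of members were masked over more than 50% of it.

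Most members lay near a WT peak. The nearest WT peak was a median of 2931 bp away, and 10220 members (81.8%) lay within 10 kb of one and 3150 (25.2%) within 1 kb. For peaks called only in WT the share within 10 kb of a TCKO peak was 83.7%. A small group of 297 members (2.38%) was more than 50 kb from any WT peak, against 0.732% of peaks called only in WT in the opposite direction. Members were spread over all autosomes, from 4.15% of the regions of chromosome 11 to 5.73% of those of chromosome 3.

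The AP-1 consensus was more frequent in the members than in shared peaks, peaks called only in WT or all autosomal regions. Shared peaks with a high ratio were not taken apart as a set of their own. AP-1 also went with a higher ratio among shared peaks, as given below, so it is not particular to the members. TGANTCA, searched on both strands, occurred in the 200 bp window of 5446 members (43.6%, 42.7 to 44.5), in 29.0% of shared peaks (28.8 to 29.3), in 14.4% of peaks called only in WT (14.1 to 14.7) and in 23.6% of all 250518 autosomal regions. The letters TGAGTCA or TGACTCA, the classical palindrome, made up most of this, in 34.2% of members, 23.5% of shared peaks and 10.8% of peaks called only in WT. The form with A or T in the middle occurred in 11.9%, 6.95% and 3.86%. More than 1 site was present in 693 members. The rule did not use the sequence, and no p-value was computed.

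The AP-1 share of members was higher in stronger calls. It was 39.8% (38.7 to 40.8) for a −log10 q of 3 to 5, 52.6% (50.9 to 54.3) for 5 to 10 and 63.7% (58.1 to 69.0) for 10 to 20, while the 7 members at 20 or above, of which 3 had a site, are too few to place. In shared peaks the same bins gave 24.9%, 29.4% and 31.6%, and in peaks called only in WT, where stronger calls had fewer sites, 15.1%, 13.9% and 11.2%. The median log2 ratio over these bins was 1.35, 1.53 and 1.99 in members and −0.23, −0.43 and −0.81 in peaks called only in WT. In shared peaks it was 0.17, 0.18 and 0.13. In the sets chosen by a missing call, the strength of the call and the ratio thus changed together and cannot be told apart.

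**Figure D3:**
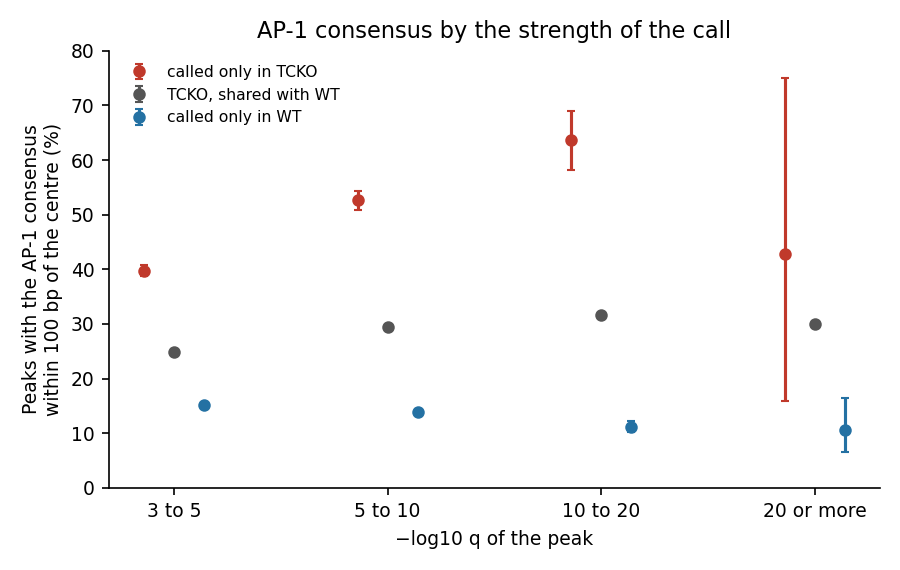
Share of peaks (%) with the AP-1 consensus TGANTCA within 100 bp of the centre, by −log10 q of the peak, for peaks called only in TCKO (red), TCKO peaks shared with WT (grey) and peaks called only in WT (blue), with 95% Wilson intervals. The red points rise from 39.8% to 63.7% over the first 3 bins and the blue points fall from 15.1% to 11.2%; the last red point rests on 7 peaks.

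The sites were concentrated at the summits. The windows printed with a site were chosen for holding it within 50 bp of the summit, so they do not bear on this. Within 20-bp bins beside the summit there were 9.45 sites per 100 members, against 0.733 per 100 at a distance of 400 to 500 bp, a ratio of 12.9. The same ratio was 10.7 in shared peaks (6.82 against 0.636) and 4.51 in peaks called only in WT (2.83 against 0.628). In members with a site, the nearest one was a median of 25 bp from the summit, and 58.7% had it within 30 bp.

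**Figure D4:**
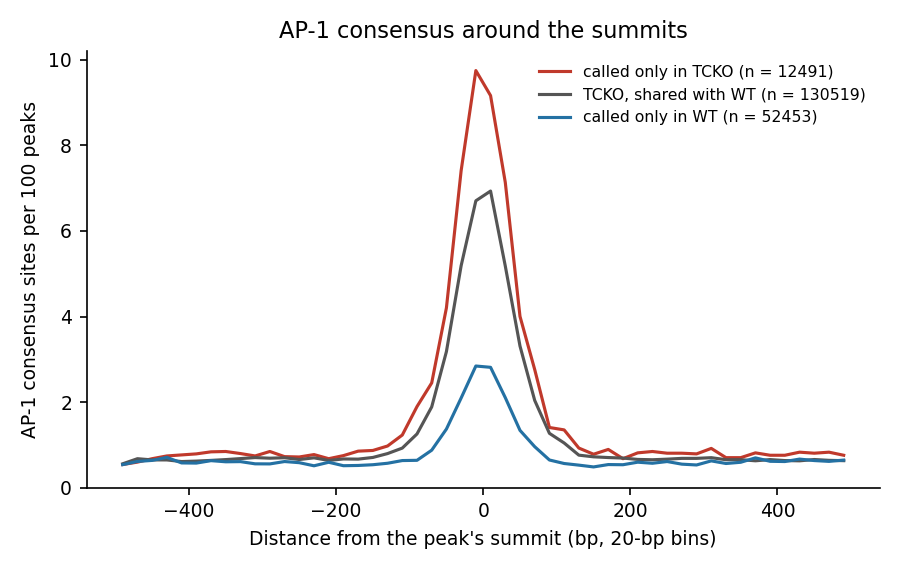
AP-1 consensus sites per 100 peaks (y) in 20-bp bins by distance from the summit in bp (x) for peaks called only in TCKO (red), TCKO peaks shared with WT (grey) and peaks called only in WT (blue). All 3 lines peak at the summit, at 9.45, 6.82 and 2.83 sites per 100 peaks, and fall to between 0.628 and 0.733 at 400 to 500 bp.

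The order of the sets was the same at matched base composition. Among windows with a GC content from 45 to 50%, a comparison added after the data were seen, the AP-1 share was 43.2% in members, 34.7% in shared peaks and 15.2% in peaks called only in WT. Among windows with 55% GC or more it was 26.5%, 12.3% and 7.65%. Leaving out windows masked over 50% or more gave 43.6%, 28.5% and 13.9%, and the 100 bp at the summit gave 34.2%, 24.6% and 10.6%.

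Among the other consensus sequences searched, some were also more frequent in members than in both other sets with intervals that did not overlap. These were those of GATA and SOX factors and the E-box CAGATG. The intervals are over peaks and hold no variation between replicates, and with this many peaks small differences separate them. Members were poorer in GC and CpG, and only AP-1 was compared at matched GC content, so the part of base composition here was not tested. The letters AGATAAG, bound by GATA factors, were found in 2.29% of members, 1.60% of shared peaks and 1.504% of peaks called only in WT, and SOX (AACAATG) in 3.54%, 2.55% and 2.71%. The Runt consensus TGTGGTT, bound by Runx2, the osteoblast master regulator, was in 8.16% of members, 8.54% of shared peaks and 9.85% of peaks called only in WT. TEAD (ACATTCC) was in 6.00%, 5.90% and 5.37%, and C/EBP (TTGCNNAA) in 7.96%, 8.43% and 9.43%. CTCF was low, in 1.24% of members against 4.17% and 2.59%, as were KLF/SP (GGGGCGG), in 0.961% against 5.08% and 2.16%, and ETS (CCGGAAG), in 0.512% against 2.11% and 1.27%. The E-box CAGATG was in 21.05% of members, 18.9% of shared peaks and 19.9% of peaks called only in WT. In the same order, the E-box CAGCTG was in 14.7%, 15.9% and 16.1%, NF-Y (CCAATCA) in 2.38%, 2.56% and 2.51%, the homeobox core TAATTA in 2.67%, 2.15% and 2.60%, and FOX (TGTTTAC) in 2.26%, 2.46% and 3.15%. POU (ATGCAAAT) was in 1.25%, 1.002% and 1.01%, and the CRE, ATF4-C/EBP, NF-kB, STAT, glucocorticoid receptor and CTF consensus sequences were each in under 1% of members.

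AP-1 and CpG content also went with the ratio in shared peaks, which the rule did not select. Among the 130519 shared peaks, those with the AP-1 consensus had a median log2 ratio of 0.39 (25th to 75th percentile 0.01 to 0.79, n = 37872), and those without it 0.04 (−0.20 to 0.38, n = 92647). The share at least 2-fold higher in TCKO was 14.9% and 5.31%. Fewer CpG also went with a higher ratio: without AP-1, shared peaks with 0, 1 to 3, 4 to 9 and 10 or more CpG in 200 bp had medians of 0.28, 0.12, −0.04 and −0.08. With AP-1 the medians were 0.58, 0.42, 0.13 and −0.04. The AP-1 difference was present in each CpG class, 0.30 log2 units without CpG and 0.04 with 10 or more. In peaks called only in WT, whose ratio was restricted by the rule with the genotypes exchanged, the medians were −0.17 with AP-1 and −0.38 without it. The difference had the same sign with 0, 1 to 3 and 4 to 9 CpG, but not with 10 or more, where the medians were −0.31 with AP-1 (n = 35) and −0.20 without. There the ratio did not follow CpG content in the same way, since without AP-1 the medians were −0.29, −0.38, −0.47 and −0.20 from the poorest to the richest CpG class. Another scaling factor would move all these medians together, and peaks are not replicates of a genotype and share the same merged libraries.

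Among members themselves the rule restricted the ratio, so the size of a difference in it is not read further. Members with AP-1 had a median log2 ratio of 1.45 and a promoter share of 1.58%, and those without it 1.37 and 3.55%. The AP-1 share was 47.4% in members without CpG, 44.6% with 1 to 3, 33.6% with 4 to 9 and 8.33% with 10 or more.

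The member with the highest q lay between genes near Fcgr3, which encodes a low-affinity receptor for immunoglobulin G, with 28 WT and 162 TCKO reads (log2 ratio 3.20, 95% interval 2.67 to 3.82). Next came a member in an intron of Rasal2, a Ras GTPase-activating protein, with 0 WT and 261 TCKO reads, which is at least 143-fold higher against a floor of 3 WT counts after scaling. That figure takes the TCKO count as exact, and the lower 95% bound of the log2 ratio, which covers the counting error of both, was 6.80. The caller's pileup at its summit was 30 reads, and 72.5% of its window was repeat-masked. The third lay in an intron of Wdr37, with 43 WT and 143 TCKO reads (log2 ratio 2.42).

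The other members of the highest q lay beside or in genes of varied function. Near Kctd8, an auxiliary subunit of the GABA-B receptor, 50 WT and 157 TCKO reads were counted, and near Gabra2, a GABA-A receptor subunit, 27 and 140. The Gabra2 summit sequence, 51 bases, occurred 4 times in the genome, whereas those of the other 28 members named for q, ratio or promoter position occurred once. In an intron of Fut9, a fucosyltransferase, 32 WT and 109 TCKO reads were counted in a window that was 95% repeat-masked. Members near Lcorl (28 and 88), in Bank1, a B cell scaffold protein (43 and 115), in an exon of Cacna1d, an L-type calcium channel subunit (20 and 123), and near Mitf, a transcription factor of melanocytes and osteoclasts (44 and 117), completed the 10. All 10 had more raw reads in TCKO than in WT, and 3 of them held the AP-1 consensus in 200 bp.

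Among members with at least 50 TCKO reads, the 10 largest ratios rested on 0 to 19 WT reads. After Rasal2 came a member near H2-M10.1, a nonclassical MHC class I gene (0 WT, 53 TCKO), at least 29.0-fold higher against the same floor, with a lower 95% bound of the log2 ratio of 4.50. Introns of Top3a, a topoisomerase (2 and 72), and Entpd7, a nucleotidase (2 and 60), followed, then 2 members at Fcgr3 (3 and 80, and 19 and 140). The rest lay near Insig2, a regulator of sterol synthesis (6 and 52), Fam114a2 (8 and 67), Apcs, serum amyloid P (16 and 125), and Lrrk2, a kinase (7 and 54). Of the 10, 3 held the AP-1 consensus in 200 bp.

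The promoter members with the most reads differed widely in ratio. The most TCKO reads were counted at Tmem108 (650 WT, 429 TCKO), where the log2 ratio of 0.12 had a counting interval from −0.06 to 0.29. Gpn2, a GTPase (532 and 342, log2 ratio 0.08), and Col5a1, a chain of fibrillar collagen V (279 and 178, 0.07), were like it, with intervals that included 0. The Tmem108 and Gpn2 members each lay 0.003 kb from a WT peak, with 18 and 14 reads piled up at the summit. Their counts may thus come from a wider region that also held that WT peak, which was not checked. Snapc2, of the small nuclear RNA activating complex (160 and 233, 1.25), Akt1s1, a subunit of mTORC1 (136 and 207, 1.32), Ankrd34a (125 and 185, 1.28), Vsig2 (68 and 185, 2.14), S100a2, a calcium-binding protein (119 and 178, 1.29), and Slc9a5, a sodium-proton exchanger (154 and 165, 0.81), had intervals above 0. Which intervals include 0 depends on the scaling factor, 1.64 here. With 1.08, from the peak caller's background, all these ratios and intervals would be lower.

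The promoter member of Prrx1 stood out by its neighbours. Prrx1 is a homeobox gene of limb mesenchyme (chr1:163245119-163313710, minus strand), and the member at chr1:163314015-163314260, upstream of its start, held 160 WT and 384 TCKO reads (log2 ratio 1.97, 1.71 to 2.25). The shared region next to it, chr1:163314373-163315426, held 475 and 1391 (2.27, 2.12 to 2.42). The region over the start itself had 953 and 851 (0.55, 0.42 to 0.69). Beyond these, the regions 2.61 and 5.86 kb inside the gene had log2 ratios of −0.55 and 0.13, the one 7.20 kb inside −1.02, and the one upstream of both, at −7.86 kb from the start, −0.30. The 2 regions with the excess ended within 2 kb upstream of the start. Because TCKO animals carry a Cre transgene built with Prrx1 regulatory sequence and WT samples were not labelled as carrying it, reads of the transgene and of the endogenous gene cannot be told apart there.

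At Fcgr3 (chr1:171051174-171064935, minus strand) 3 members stood among 24 other regions within 50 kb of its start. They lay 0.463 kb, 1.86 kb and 16.9 kb upstream, with 19, 3 and 28 WT reads and 140, 80 and 162 TCKO reads. Their log2 ratios were 3.53 (2.91 to 4.28), 5.05 (3.87 to 7.04) and 3.20 (2.67 to 3.82). The other 24 regions had log2 ratios from −0.91 to 0.86, with a median of 0.21, so the highest of them lay below the lower bound of every member. The rule used this contrast and the 3 members were named for their q or ratio, so this separation is a description. The shared region at the start held 914 and 731 reads (0.39). The near-side and far-side windows printed above resemble each other, and a script found an identical run of 58 bases in the 2 members, although the 51 bases at each summit occurred once in the genome.

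**Figure D5:**
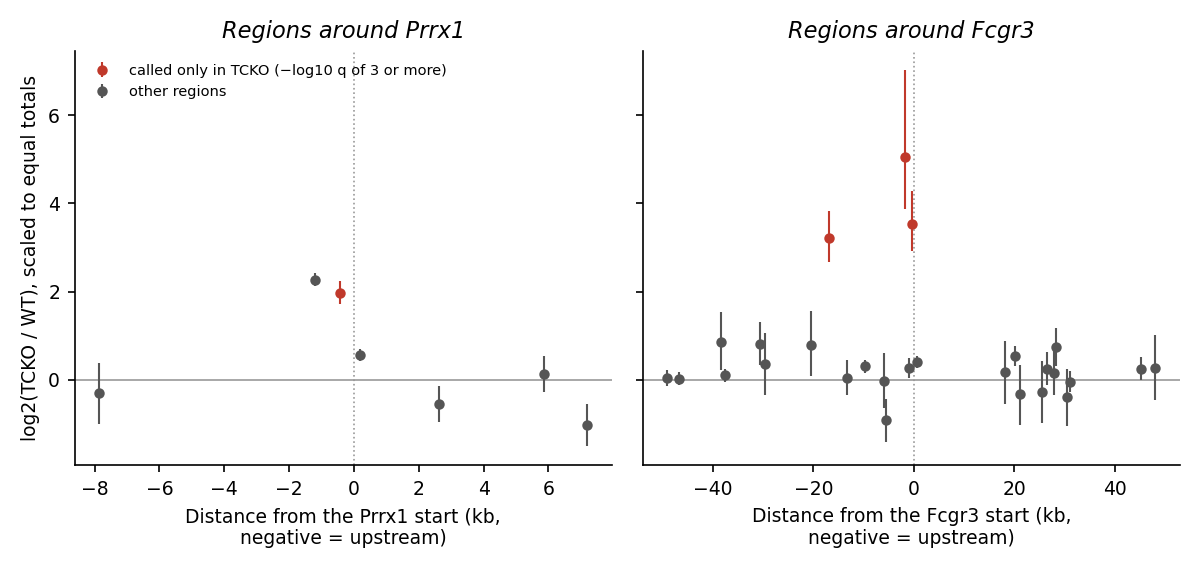
log2 of TCKO over WT reads after scaling to equal totals (y) by distance in kb from the start of Prrx1 (left, within 10 kb) and Fcgr3 (right, within 50 kb), negative being upstream, with 95% Wilson counting intervals as lines. Peaks called only in TCKO are red and other regions grey; at Prrx1 the member at 1.97 sits beside a shared region at 2.27, and at Fcgr3 the 3 members at 3.20 to 5.05 stand above 24 regions between −0.91 and 0.86.

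Members were assigned to protein-coding loci, the gene with 2 kb before its start. Of 17465 autosomal loci with any region, 3758 (21.5%) held at least 1 member, and members made up 4.44% of the regions in all loci. At least 5 members were in 159 genes. High numbers were found in very long gene models, such as 15 each in Fgfr2 and Gm20388, whose models span 2961 and 4435 kb and enclose 29 and 71 other protein-coding genes, 14 each in Lingo2 and Fhit, 13 in Macrod2, and 12 each in Ptprt, Opcml, Lrmda and Anks1b.

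By share, Lingo2, a leucine-rich repeat protein of neurons, came first with 14 of 42 regions (33.3%), followed by Lrrtm4, a synaptic adhesion protein (8 of 31), Kctd16, a GABA-B receptor auxiliary subunit (6 of 24), Nkain2 (6 of 25), Gm11639 (6 of 26), Fam171a1 (8 of 35), Pak7, a kinase of neurons (5 of 22), Lrrc28 (7 of 31), Csmd3 (10 of 46) and Pex5l (5 of 23). In Lingo2 only 3 regions were called only in WT, while over all autosomal chromosomes such peaks were 20.2% to 21.6% of the regions. The genes were ranked on this share, so it is a description.

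Axon guidance and synapse genes, a list of 46 that was drawn up with earlier results of these data known, held members in 40 loci, and 147 of their 2062 regions were members (7.13%), beside 4.44% over all loci. Their median gene length was 391 kb, and members were more frequent in longer genes in general, at 3.94% of the regions in genes under 100 kb, 4.65% from 100 to 500 kb and 6.50% over 500 kb. Cntnap2 and Dlg2, of neuronal adhesion and the postsynaptic scaffold, had 11 and 10 members, Nrxn3, a neurexin, 8, and Robo1 and Slit3, a guidance receptor and a ligand of its family, 7 each. The members with the most TCKO reads lay in Unc5b, a netrin receptor (74 WT, 97 TCKO, log2 ratio 1.10), in Slit3 (49 and 97, 1.68) and in Unc5d (44 and 92, 1.76).

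Genes of the skeletal lineage also held members. In the osteoblast list 11 of 181 regions (6.08%, beside 4.44% over all loci) in 5 of 21 loci were members, including 4 in Runx2 and 1 each in Alpl, Fgf7 and Msx2. The 2 Runx2 members with the most reads held 76 WT and 87 TCKO (log2 ratio 0.90) and 52 and 80 (1.32), and the exonic Msx2 member 120 and 97 (0.41). In the chondrocyte list 9 of 285 regions (3.16%) were members, 6 in Sox5 and 3 in Sox6, partners of Sox9. In Sox6 they included introns with 50 and 107 reads (1.79) and 31 and 104 reads (2.43).

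The AP-1 factor genes themselves had 2 members in 67 regions (2.99%), an exonic one in Fosl2, a Fos family gene (60 and 72, log2 ratio 0.97), and an intronic one in Batf (17 and 33, 1.62). Inflammatory cytokine and chemokine genes had 2 in 49 (4.08%), in Lif, a cytokine of the interleukin-6 family (48 and 107, 1.85), and at the start of Il33, an alarmin (66 and 61, 0.60). Macrophage and osteoclast genes had 3 in 38 (7.89%), of which 2 were those at Fcgr3 and the other was at the start of Acp5, the tartrate-resistant phosphatase of osteoclasts (49 and 67, 1.15). Endothelial genes had 5 in 99 (5.05%), 3 of them in Cdh5, skeletal muscle genes 2 in 100 (2.00%), in Neb and Actn2, and germline genes silenced by DNA methylation 1 in 50 (2.00%), in Mael. These counts are too small to read the shares against the 4.44% of all loci.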

How the data were processed

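Per the submitters' processing notes and the methods, the authors aligned reads to GRCm38 with STAR 2.7.0e, kept uniquely mapping reads, combined the replicates by genotype and ran MACS2 on each. The peak lists deposited by the authors give, for each summit, a ratio (fold enrichment over the local background), a −log10 p-value and a −log10 q-value, and a summit position. The deposited count table holds raw read counts per region, 1 merged column per genotype, and 0 columns of other samples were left unused. Whether duplicates were removed before counting, and whether reads were shifted for the transposase, is not given in the sources used here.

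Repeated intervals were joined and given their highest q, and an overlap was 1 bp or more. The TCKO counts were scaled to the WT total, and the 95% intervals come from Wilson's method for the share of a region's reads that were TCKO. Pileup and background were solved from the fold and the p-value, and the pileups came out whole (within 0.05) for 100% of peaks. Annotation was GENCODE M21 and sequence came from the RefSeq GRCm38 genome, whose chromosomes were long enough for every coordinate, and coordinates count from 1. Either strand of the 200 bp at the peak's middle could hold a consensus.

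Named were the 10 members of highest q, the 10 of largest ratio with at least 50 TCKO counts, the 10 promoter members with most TCKO counts, the 10 genes with most members and the 10 with the largest share of at least 20 regions, up to 3 members per gene list, and 5 on each side of the threshold. A few items that these rules name are not reported here. Members, lists and rules were chosen with earlier results of these data known. TMM (edgeR 4.0.16) and size factors (DESeq2 1.42.0, R 4.3.3) gave alternative scalings. Fold calls, the consensus search and overlaps were tested on simulated data. Python 3.11.15, numpy 2.4.6, pandas 2.3.3, scipy 1.17.1 and pysam 0.24.0 were used.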

Additional observations from a re-analysis of the deposited data

How the results depend on the processing

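No paired analysis was possible because replicates were merged within each genotype before counting, and for the same reason no sample could be left out. The number of peaks called only in TCKO moved from 12491 to 3488 for calls with −log10 q 5 or more, to 302 for 10 or more, to 25792 at any q and to 19812 when both lists were cut to equal numbers. It stayed within 1.5 times with no WT peak within 1 kb (9341), against WT peaks of −log10 q of at least 3 only (17990) and with chromosomes X and Y (12766). Members at least 2-fold higher in TCKO, 10026 in the report, were 3745 with no scaling, 4483 with the peak caller background, 4611 at a fold of 3, 3987 with an interval wholly past 2, and 3081 and 299 when only calls of −log10 q from 5 or from 10 were kept. Their median log2 ratio of 1.41 became 1.33 with TMM, 1.34 with DESeq2 size factors, 0.70 with no scaling, 0.81 with the caller background, 1.17 with 10 counts added, 1.36 for at least 50 counts, and 1.57 and 2.00 at the stricter q. The AP-1 share of 43.6% became 34.2% in 100 bp at the summit, 41.4% in the whole peak, 53.5% and 63.2% at the stricter q, 46.3% with no WT peak within 1 kb and 45.7% in members at least 2-fold higher. It was 43.2% in windows with 45 to 50% GC, which was chosen after seeing the data. The promoter share of 2.69% became 4.60% within 2 kb, 6.48% with the starts of all transcripts, 2.12% and 1.32% at the stricter q, 1.295% with no WT peak within 1 kb and 1.73% in members at least 2-fold higher. The intergenic share of 52.0% became 43.9% with genes of all biotypes, 53.0% among calls of −log10 q 10 or more and 53.6% in members at least 2-fold higher. The share within a given distance of a WT peak was 25.2% for 1 kb, 81.8% for 10 kb and 97.6% for 50 kb. Repeat-masked bases, 17.5%, were 16.6% at a −log10 q of at least 10. In none of these did a value change direction. The merged libraries and a median of 28 WT and 45 TCKO reads per member limit what a single peak can show.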

Other observations

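The X chromosome, which the rule left out, gave a like picture. Of 3122 TCKO peaks there with a −log10 q of at least 3, 273 (8.74%) had no WT overlap, with medians of 23 WT and 39 TCKO reads. The AP-1 consensus was in 50.9% of them, beside 27.3% of all 5319 regions of the chromosome, and 59.7% were intergenic.

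The autosomal TCKO peaks without WT overlap that missed the q threshold, 13301 in number, held the AP-1 consensus in 26.8% of windows, beside 23.6% of all autosomal regions.

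The densest 1000 kb window, chr8:20000001-21000000, held 39 members among 179 regions (21.8%), and the next densest held 16 of 149. Its members had medians of 28 WT and 50 TCKO reads, the AP-1 consensus in 5.13% and a mean of 36.8% repeat-masked bases. The 51 bases at the summit occurred more than once in the genome for 22 of the 39, up to 17 times, and once for each of 32 members taken at even steps over the whole set.

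Of 5067 members with at least 50 TCKO reads, 36 were at least 8-fold higher in TCKO, and 11 of these were on chromosome 1. That chromosome held 975 of the 12491 members. Over all autosomal regions the 95th percentile of the log2 ratio was 1.49, short of 8-fold. The rule used this contrast, so these numbers are a description. In the stretch from 157 to 173 Mb of that chromosome, chosen after the values were seen, there were 7 of the 36, including those at Rasal2 and Fcgr3, and Prrx1 lies inside it. Members were 4.35% of the 2159 regions of that stretch, beside 5.17% of the regions of the whole chromosome. The regions of the stretch had a median log2 ratio of 0.09, beside 0.06 over all regions.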
